A study of Rattus norvegicus with 9 samples.

Results

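The addition of near-infrared light to tumour cells given molybdenum disulfide nanoparticles was followed through the messenger RNA of 4T1 cells, a mouse mammary carcinoma line grown in culture. The comparison sets the 3 libraries of the group labelled MoS2_NIR, cells with the particles and with light, against the 3 libraries of the group labelled MoS2, cells with the particles alone. These are 6 of the 9 libraries of the study, whose other 3 came from cells in medium (Control). Both groups compared carry the particles, so the comparison concerns the light added to them, and no group received light without particles. All rows of the deposited expression table that carry a gene name were used, 2390 of 2392. The table is a selection of genes by a rule that is not stated, so counts of calls describe genes already picked and not the whole transcriptome. The particle dose, the power and duration of the light, the temperature reached and the time of harvest are not given in the sources used here, and nothing states that the libraries of a group are separate cultures, so the p-values cover the spread between these libraries and no more.

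Molybdenum disulfide absorbs near-infrared light and gives it off as heat, which is the basis of photothermal therapy, the destruction of tumour tissue by local warming. Heat unfolds proteins, and cells answer by releasing heat shock factor 1 from chaperones, after which it switches on genes of the HSP70 family, the small heat shock proteins and their co-chaperones. Stress of this kind also reaches the MAP kinase pathways, whose early targets are the AP-1 and EGR transcription factors, and the nucleolus, where ribosomes are put together. The title of the series concerns warming at low temperature, a setting in which the chaperone response is known to protect tumour cells.

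The table holds scores standardized over the 9 libraries, and the expression values behind them could be recovered for 2387 of the 2390 genes. The unit of these values is not stated, so levels are compared between libraries and not between genes. Their median per library was 2.07, 1.97 and 2.0 in MoS2 and 3.26, 3.19 and 3.25 in MoS2_NIR. Across tested genes, Pearson correlations of log2 values were 0.975 to 0.981 within MoS2, 0.979 to 0.984 within MoS2_NIR and 0.856 to 0.881 between the groups. The rule that selected these genes is not stated, so the lower correlations between groups describe them and not the transcriptome. Testing was limited to genes that reached a value of 1 in 3 or more of the 9 libraries, which left 1747 genes, and 640 named genes fell below that limit. Hspb1, Hspa1a, Dnajb5, Slc16a8, Apoe, Mir17hg and Mir155hg would not have reached that limit without the light libraries. Their p-values are given as description and not as support. A gene is called higher or lower where the adjusted p from limma, a linear model fitted across all genes, is under 0.05. Log2 changes are differences between group means of log2 (value + 1), which understates the change of genes with low values. Means are given ± SD (n = 3 libraries per group) on the scale of the recovered values.

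With light, 1078 genes were called higher (61.7% of those tested) and 444 lower (25.4%), together 87.1% of the tested genes. The group means differed by at least 2-fold in 696 of the genes called higher and in 181 of those called lower. In 1078 genes (61.7%) all 3 light values lay above all 3 MoS2 values, and in 450 (25.8%) all 3 lay below. Groups without overlap were thus the rule in this table, and a lack of overlap in a single gene is description. The median log2 change of the tested genes was 0.68, and log2 changes between -0.2 and 0.2 were found for 84 genes. The balance of the 2 directions rested on the scale. On a median-ratio scale, which sets the typical gene of the table level between libraries, the median was 0.02 and the calls were 409 higher (23.4%) and 610 lower (34.9%). After quantile normalization the median was 0.22, with 687 higher (39.3%) and 544 lower (31.1%). Whether the general shift belongs to the cells or to the scale of the values cannot be told apart, because a table of selected genes holds no set of genes known to be level. Log2 changes of single genes are therefore given as deposited, and the log2 change on the median-ratio scale follows after the word rescaled or is named as such in the same paragraph. Medians and counts of lists are as deposited unless the scale is named. The lists were written with earlier results of these data known, so their counts and medians are description and not support. Of the 444 genes called lower, 443 stayed lower on the median-ratio scale and 441 were lower on all 3 scales. Of the 1078 genes called higher, 409 stayed higher on the median-ratio scale and 22 were called lower. This scale divides each library by a factor, which was 1.62 to 1.69 in MoS2_NIR and 0.91 to 0.96 in MoS2. It thereby pulls log2 changes down, so calls of lower expression could hardly be lost and their stability is no support for them.

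**Figure D1:**
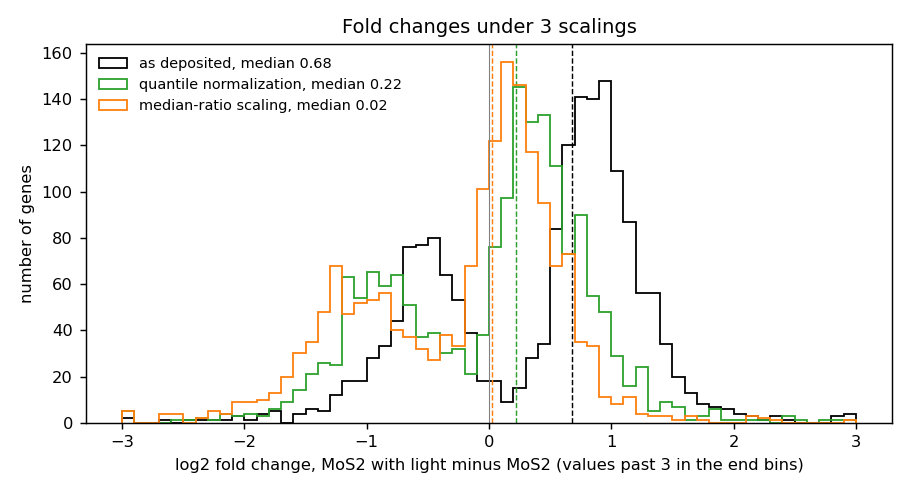
Log2 changes of MoS2_NIR against MoS2 over the 1747 tested genes, as deposited, on the median-ratio scale and after quantile normalization, with the number of genes on the vertical axis and values past 3 in either direction in the end bins. The median moves from 0.68 as deposited to 0.02 and 0.22.

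**Figure D2:**
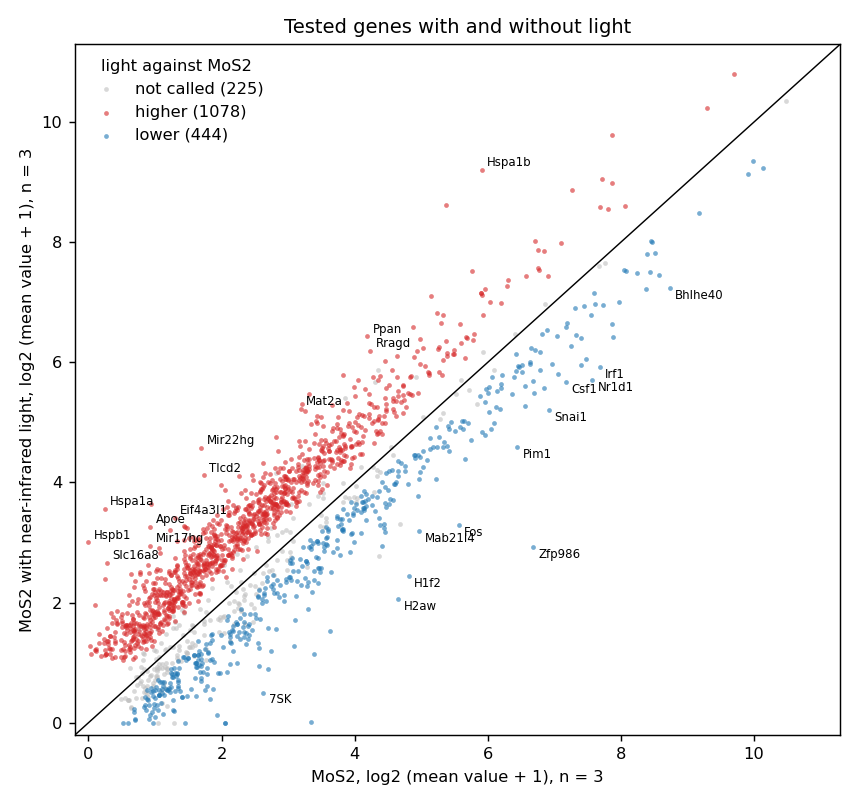
Mean recovered value of each tested gene in the 3 MoS2 libraries (horizontal) and the 3 MoS2_NIR libraries (vertical), both as log2 (mean + 1), coloured by the limma call. Genes called higher lie above the diagonal and genes called lower below it, and the genes furthest from it include Zfp986, H2aw and Fos below and Hspa1b, Hspa1a and Mir22hg above.

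Among genes called higher with a group mean of 5 or more, predicted genes and pseudogenes set aside, the 2 highest log2 changes were those of inducible heat shock genes. Hspa1b (ENSMUSG00000090877), which encodes the inducible HSP70 chaperone, read 58.2, 57.1 and 62.4 in the MoS2 libraries and 206, 1014 and 544 in the light libraries. Every light library lay above every MoS2 library, and the light libraries differed among themselves by far more than the MoS2 libraries did. The log2 change was 3.01 (SE 0.51, limma adjusted p = 0.00101), 2.2 on the median-ratio scale and 3.63 without MoS2_NIR replicate 1. Hspa1a (ENSMUSG00000091971), its near-identical neighbour, read 0.27, 0.19 and 0.090 with particles alone and 2.69, 19.7 and 10.2 with light. The groups did not overlap, and the same light library was the highest as for Hspa1b. Its log2 change was 3.0 (limma adjusted p = 0.00101), 2.39 on the median-ratio scale and 3.69 without MoS2_NIR replicate 1. Reads of this gene pair may be split between the copies, so each single level is uncertain while both moved the same way. In RNA from a whole culture, more cells that express a gene and more RNA per cell cannot be told apart.

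The small heat shock protein gene Hspb1 (ENSMUSG00000004951), which encodes HSP27, was listed at 0 in all 3 MoS2 libraries and in all 3 Control libraries, and at 3.09, 12.5 and 5.42 in the light libraries. It was the single named gene listed at 0 in every MoS2 library that reached at least 1 in every light library. It reached the limit for testing through the light libraries alone, so its p-value (limma adjusted p = 9.04e-05) is description and not support. No fold is given against libraries listed at 0. Within the light group MoS2_NIR replicate 2 was highest and replicate 1 lowest for Hspa1b, Hspa1a and Hspb1 alike, and without the highest library the light means were 375, 6.42 and 4.25 against 588 ± 405, 10.8 ± 8.52 and 7.01 ± 4.91 over all 3.

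Of the 10 tested genes for heat shock proteins and chaperones, 7 were called higher, 1 lower and 2 were not called, beside 61.7% higher and 25.4% lower over all tested genes, so the count was near that of the table. Their median log2 change was 0.94. The median-ratio scale gave 4 higher and 3 lower, beside 23.4% and 34.9% of all tested genes, and quantile normalization gave 6 and 2, beside 39.3% and 31.1%. Hspb1, Hspa1a and Dnajb5 reached the limit for testing only through the light libraries and are counted as higher on every scale. The counts of this list are therefore description and not support. Among the co-chaperones, Dnajb5 (ENSMUSG00000036052), a J-domain partner of HSP70, read 0.96, 0.90 and 1.25 in MoS2 and 4.83, 5.5 and 4.34 with light (log2 change 1.53, SE 0.15, limma adjusted p = 9.58e-06, and 0.91 on the median-ratio scale). Its 2 groups did not overlap. Dnaja4, another J-domain protein, read 2.64, 1.76 and 1.93 in MoS2 and 3.74, 5.96 and 4.01 with light (log2 change 0.83, limma adjusted p = 0.0009). Its call ended on the median-ratio scale (0.21, limma adjusted p = 0.34) and under quantile normalization (0.29, 0.172).

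The other small heat shock proteins divided. Cryab, the lens and muscle chaperone alpha-B crystallin, rose from 13.9 ± 2.04 to 29.7 ± 3.13 (log2 change 1.05, limma adjusted p = 2.50e-05), which was 0.27 on the median-ratio scale with the call lost (limma adjusted p = 0.113). Hspb8, a partner of the co-chaperone BAG3, rose from 44 ± 1.14 to 69.9 ± 0.803 as deposited (log2 change 0.65, limma adjusted p = 3.50e-05), and its direction turned on the median-ratio scale (-0.15, limma adjusted p = 0.107). In contrast, Hspb6 fell from 23.2 ± 2.41 to 14.7 ± 1.09, with values of 24.3, 20.4 and 24.8 in MoS2 and 15.8, 13.7 and 14.7 with light (log2 change -0.62, SE 0.11, limma adjusted p = 0.000389). Its light values all lay below its MoS2 values, and the log2 change was -1.37 on the median-ratio scale. Hspb7 was not called, at 0.51, 0.74 and 1.08 in MoS2 and 0.36, 0.51 and 0.42 with light (log2 change -0.30, rescaled -0.52, limma adjusted p = 0.0656), and was called lower with a pseudocount of 0.1 (limma adjusted p = 0.0444) and on both other scales. Hsph1, an HSP110 chaperone that helps HSP70 to exchange its nucleotide, was not called either, at 57.7, 59.3 and 63.5 in MoS2 and 60.6, 82 and 71.1 with light (log2 change 0.23, limma adjusted p = 0.0878). Its groups overlapped, it was called higher without MoS2_NIR replicate 1 (log2 change 0.34, limma adjusted p = 0.0171), and it turned lower on the median-ratio scale (-0.57, 0.00352). The list holds 40 genes, and the others, heat shock factor genes included, were not analysed here.

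**Figure D3:**
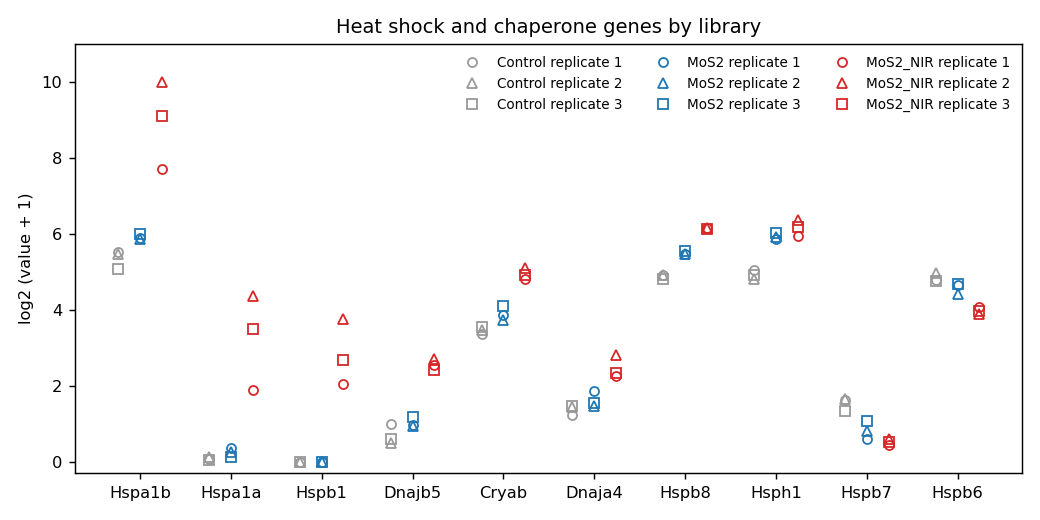
Recovered values (log2 of value + 1, vertical axis) of the 10 tested heat shock and chaperone genes in each MoS2 (blue) and MoS2_NIR (red) library, with Control in grey, 1 marker shape per replicate number, as deposited. Hspa1b, Hspa1a and Hspb1 separate furthest, with MoS2_NIR replicate 2 the highest of the light libraries and replicate 1 the lowest in each of the 3.

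Beyond the chaperones, the other genes at the top of that selection were of several kinds, and each of those that follow stayed higher on all 3 scales. Mir22hg (ENSMUSG00000085148), the host transcript of the microRNA miR-22, read 3.16, 1.74 and 1.79 in MoS2 and 24.4, 20.3 and 24.1 with light (log2 change 2.91, SE 0.29, limma adjusted p = 2.04e-05). Every light library lay far above the highest MoS2 library. Mir17hg, the host of the miR-17-92 cluster, rose from 0.907 ± 0.188 to 6.72 ± 0.317 (log2 change 2.02, limma adjusted p = 8.35e-07), and these log2 changes were 2.17 and 1.37 on the median-ratio scale. Tlcd2 (ENSMUSG00000038217), which encodes a membrane protein with a TLC domain, rose from 2.33 ± 0.229 to 16.4 ± 1.83 (log2 change 2.38, rescaled 1.65, limma adjusted p = 3.24e-07). Slc16a8, the monocarboxylate transporter MCT3, read 0.32, 0.21 and 0.12 in MoS2 and 4.98, 5.3 and 5.7 with light (log2 change 2.38, rescaled 1.78, limma adjusted p = 4.56e-07). Apoe, the lipid-carrying apolipoprotein E, rose from 0.90 ± 0.355 to 8.61 ± 2.02 (log2 change 2.33, rescaled 1.66, limma adjusted p = 2.36e-06).

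Mat2a (ENSMUSG00000053907) encodes the catalytic subunit of the enzyme that makes S-adenosylmethionine, the methyl donor of the cell, and read 7.94, 8.4 and 8.09 in MoS2 and 40.4, 33.3 and 35.8 with light (log2 change 2.03, SE 0.14, limma adjusted p = 1.09e-06). Its values in each group lay close together and far from those of the other group. Rragd, a Rag GTPase that carries amino acid signals to mTORC1, read 13, 12.8 and 27.6 in MoS2 and 68.3, 93.4 and 54.5 with light (log2 change 2.01, limma adjusted p = 0.00125), and MoS2 replicate 3 stood above the other MoS2 libraries. Eif4a3l1, a copy of the gene of the exon junction helicase eIF4A3, rose from 1.46 ± 0.506 to 9.61 ± 3.14 (log2 change 2.09, limma adjusted p = 1.34e-05), and its reads may be shared with the parent gene. On the median-ratio scale the log2 changes of these 3 genes were 1.25, 1.21 and 1.4.

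The lowest log2 change in that selection was that of Zfp986 (ENSMUSG00000078500), a zinc finger gene of a family with many close copies, which read 117, 97.8 and 88.8 in MoS2 and 2.19, 1.86 and 15.7 with light (log2 change -4.25, rescaled -4.86, SE 0.68, limma adjusted p = 0.000813). All light values lay below all MoS2 values, and MoS2_NIR replicate 3 stood above the other light libraries. Without that library the log2 change was -5.07, and its sequence may share reads with other zinc finger genes. Pim1, a serine/threonine kinase gene induced by cytokines, fell from 86.2 ± 5.3 to 23 ± 4.62 (log2 change -1.88, rescaled -2.66, limma adjusted p = 4.98e-06). Mab21l4 fell from 30.4 ± 2.45 to 8.17 ± 2.1 (log2 change -1.8, rescaled -2.51, limma adjusted p = 4.38e-06). The entry listed as 7SK (ENSMUSG00002076957) carries the name of the small nuclear RNA that holds the elongation factor P-TEFb inactive. Whether the entry is the gene of that RNA or a copy was not tested. It read 8.96, 3.54 and 3.04 in MoS2 and 0.52, 0 and 0.73 with light (log2 change -2.04, rescaled -2.28, limma adjusted p = 0.000442), with MoS2 replicate 1 above the other MoS2 libraries. The 7SK RNA is not polyadenylated as a rule, and the labels give polyA RNA as the molecule sequenced.

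**Figure D4:**
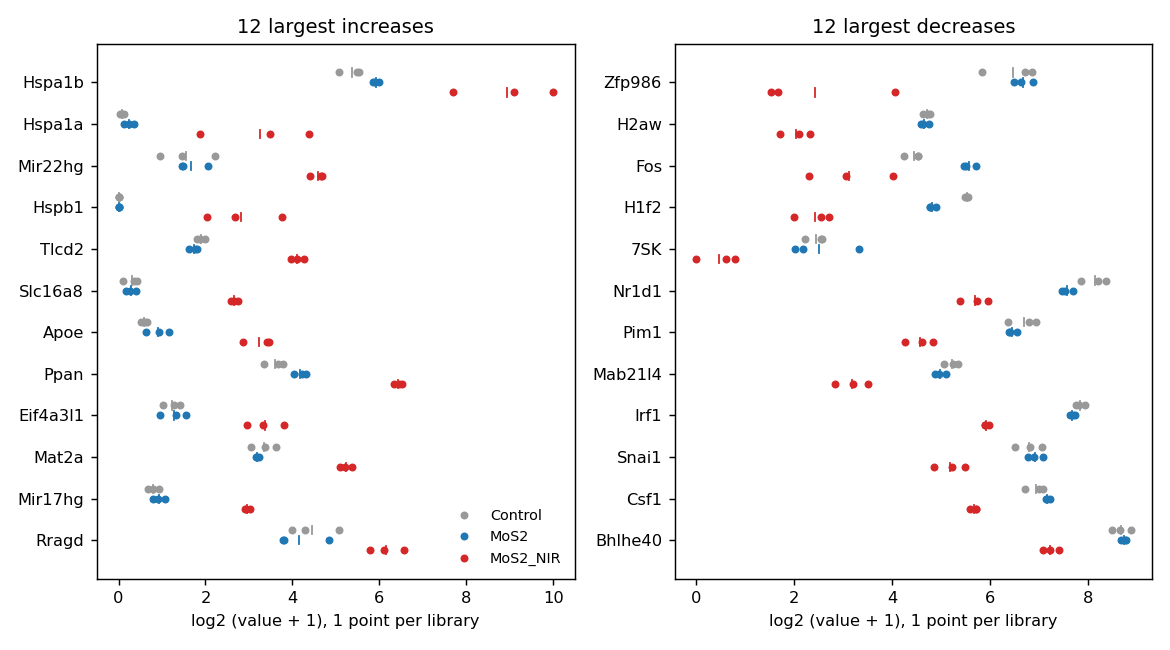
Recovered values (log2 of value + 1, horizontal axis) in each MoS2 (blue) and MoS2_NIR (red) library, with Control in grey and group means as ticks, of the 12 genes with the highest and the 12 with the lowest log2 changes among calls with a group mean of 5 or more, predicted genes and pseudogenes set aside. In all 24 genes, picked as extremes among calls, the 3 light values lie on 1 side of the 3 MoS2 values. Over all tested genes the 3 light values lie all above in 61.7% and all below in 25.8%.

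Of 10 immediate early and AP-1 genes tested, 7 were called higher and 2 lower (median log2 change 1.14), close to the 61.7% and 25.4% of all tested genes. The median-ratio scale gave 5 and 2, beside 23.4% and 34.9%. The AP-1 subunit gene Fosl1 (ENSMUSG00000024912), which encodes FRA-1, read 38.8, 34.9 and 29.8 in MoS2 and 151, 142 and 116 with light (log2 change 1.95, SE 0.15, limma adjusted p = 2.35e-06, and 1.15 on the median-ratio scale). In contrast Fos (ENSMUSG00000021250), the founding AP-1 subunit, read 43, 44.3 and 51.7 in MoS2 and 3.9, 7.33 and 15.1 with light (log2 change -2.44, SE 0.37, limma adjusted p = 0.000359, and -3.14 on the median-ratio scale). The 2 AP-1 subunits thus moved in opposite directions, each with no overlap between the groups, although the light values of Fos spread widely. Over all tested genes the light values lay all above in 61.7% and all below in 25.8%. Klf6, a zinc finger transcription factor, rose from 30.8 ± 1.85 to 82.4 ± 10.7 (log2 change 1.39, rescaled 0.58, limma adjusted p = 3.25e-06). Ier3, an early gene that affects survival, rose from 209.8 ± 2.41 to 532 ± 49.9 (log2 change 1.33, rescaled 0.52, limma adjusted p = 1.02e-06). Klf10, a TGF-beta inducible repressor, fell from 124 ± 1.34 to 61.9 ± 10.2 (log2 change -1.0, rescaled -1.8, limma adjusted p = 2.19e-05). Myc (ENSMUSG00000022346), the growth-promoting transcription factor, read 51.4, 52 and 55.9 in MoS2 and 174, 184 and 191 with light (log2 change 1.77, SE 0.11, limma adjusted p = 8.35e-07), and its log2 change was 0.96 on the median-ratio scale.

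The MAP kinase list holds genes for phosphatases and SPRED proteins that restrain the pathway, together with other target genes and an EGF-family ligand. Of 9 tested, 8 were called higher and 1 lower (median log2 change 1.08), in a table where 61.7% were called higher. Rescaling left 5 higher and 1 lower, beside 23.4% and 34.9% of all tested genes. Dusp5 (ENSMUSG00000034765), a nuclear phosphatase of ERK, read 10.04, 10.4 and 10.4 in MoS2 and 33.3, 34.6 and 31.5 with light (log2 change 1.6, rescaled 0.82, SE 0.10, limma adjusted p = 8.35e-07). Dusp8, which acts on JNK and p38, rose from 1.03 ± 0.10 to 4.32 ± 0.119 (log2 change 1.39, rescaled 0.78, limma adjusted p = 3.59e-05). Dusp6, a cytoplasmic phosphatase of ERK, rose from 10.9 ± 0.766 to 24.2 ± 2.12 (log2 change 1.08, rescaled 0.31, limma adjusted p = 8.47e-06). Phlda1, an early target of growth signals, rose from 28.2 ± 3.32 to 95.1 ± 6.23 (log2 change 1.72, rescaled 0.92, limma adjusted p = 8.35e-07), and the ligand gene Areg, which encodes amphiregulin, rose from 3.69 ± 0.582 to 10.7 ± 1.65 (log2 change 1.32, rescaled 0.60, limma adjusted p = 0.000108). All 5 stayed called higher on the median-ratio scale. The gene called lower was another phosphatase gene, Dusp7, named here after its values were seen. It read 108, 104 and 117 in MoS2 and 51, 57.9 and 63.7 with light (limma adjusted p = 0.000133), so the phosphatase genes divided.

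Other stress programmes moved in part. In the ATF4 response, which restores amino acid supply and translation, 3 of 6 tested genes were called higher and 2 lower, beside 61.7% and 25.4% of all tested genes. The median log2 change of 0.43 turned to -0.16 on the median-ratio scale and to -0.01 after quantile normalization. Trib3, a pseudokinase that restrains AKT, read 20.6, 21 and 21.4 in MoS2 and 69.1, 65.4 and 56.9 with light (log2 change 1.55, rescaled 0.76, SE 0.10, limma adjusted p = 1.09e-06). Sesn2, a leucine sensor that restrains mTORC1, rose from 4.52 ± 0.432 to 16.4 ± 1.01 (log2 change 1.66, rescaled 0.92, limma adjusted p = 9.94e-07), and Stc2, a secreted glycoprotein, rose from 5.81 ± 0.51 to 13.9 ± 3.88 (log2 change 1.09, limma adjusted p = 0.000176) with the call lost on the median-ratio scale (0.36, limma adjusted p = 0.0809). The opposite direction was seen for Ddit4 (ENSMUSG00000020108), the mTORC1 inhibitor REDD1, at 314, 324 and 354 in MoS2 and 140.5, 156 and 150.2 with light (log2 change -1.15, rescaled -1.96, SE 0.10, limma adjusted p = 3.62e-06). Pycr1, an enzyme of proline synthesis, fell from 23.3 ± 0.845 to 14.7 ± 1.36 (log2 change -0.63, rescaled -1.39, limma adjusted p = 0.000131). Aldh1l2, a mitochondrial folate enzyme, was not called (from 1.84 ± 0.149 to 1.41 ± 0.286, limma adjusted p = 0.0883), and was called lower on both other scales.

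In the NRF2 and antioxidant list, 3 of 5 tested genes were called higher and 1 lower, about the 61.7% and 25.4% of all tested genes. Median-ratio scaling gave 2 higher and 2 lower, beside 23.4% and 34.9%. Srxn1, which repairs overoxidized peroxiredoxins, rose from 21.9 ± 2.2 to 48.4 ± 0.825 (log2 change 1.11, rescaled 0.32, limma adjusted p = 1.19e-05), and Osgin1, an NRF2 target, rose from 17.5 ± 2.03 to 39 ± 0.816 (log2 change 1.12, rescaled 0.33, limma adjusted p = 9.29e-06). Txnrd1, thioredoxin reductase, rose from 76.9 ± 5.38 to 154 ± 0.589 (log2 change 0.99, limma adjusted p = 3.84e-05), with the call lost on the median-ratio scale (0.18, limma adjusted p = 0.127). Gstm1, a glutathione transferase, fell from 9.93 ± 0.42 to 6.94 ± 0.416 (log2 change -0.46, rescaled -1.16, limma adjusted p = 0.00179). Sod3, extracellular superoxide dismutase, read 0.65, 0.72 and 0.78 in MoS2 and 0.50, 0.66 and 0.58 with light and was not called (log2 change -0.12, limma adjusted p = 0.304). It was called lower on the median-ratio scale (-0.39, limma adjusted p = 0.00523). All 3 tested genes of the metal response were called higher as deposited, where 61.7% of all tested genes were, and 2 on the median-ratio scale, where 23.4% were. The zinc exporter gene Slc30a1 rose from 1.18 ± 0.0529 to 3.36 ± 0.401 (log2 change 1.0, rescaled 0.42, limma adjusted p = 1.87e-05), and Suox, sulfite oxidase, an enzyme with a molybdenum cofactor, rose from 2.95 ± 0.24 to 6.67 ± 0.456 (log2 change 0.96, rescaled 0.28, limma adjusted p = 2.25e-05). Mtf1, the metal-sensing transcription factor, rose from 6.92 ± 1.49 to 13 ± 0.767 (log2 change 0.84, rescaled 0.10, limma adjusted p = 0.000694), and its call ended on both other scales (limma adjusted p = 0.58 and 0.0647).

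Most tested members of the interferon response and antigen presentation lists were lower. Of 20 interferon-response genes tested, 13 were called lower and 1 higher, beside 25.4% lower over all tested genes, with a median log2 change of -0.39 beside 0.68. On the median-ratio scale 19 were lower and 0 higher, beside 34.9% lower. Irf1 (ENSMUSG00000018899), a transcription factor that drives interferon-stimulated and antigen presentation genes, read 197, 211 and 205 in MoS2 and 58.3, 58.5 and 62.1 with light (log2 change -1.76, SE 0.08, limma adjusted p = 3.24e-07, and -2.56 on the median-ratio scale). Its light values lay close together and far below its lowest MoS2 value. Gbp2, an interferon-induced GTPase, fell from 21.8 ± 0.892 to 11.5 ± 1.27 (log2 change -0.87, rescaled -1.61, limma adjusted p = 1.98e-05). Zbp1, which senses Z-form nucleic acids and can trigger necroptosis, read 4.19, 5.83 and 4.44 in MoS2 and 0.92, 2.05 and 1.53 with light (log2 change -1.23, rescaled -1.69, limma adjusted p = 6.47e-05), and Bst2, the viral tether called tetherin, fell from 158 ± 7.57 to 118 ± 5.62 (log2 change -0.42, rescaled -1.23, limma adjusted p = 0.000495). The exception was Cgas, the DNA sensor that makes cGAMP, which rose from 2.01 ± 0.341 to 4.6 ± 0.533 (log2 change 0.90, limma adjusted p = 0.000117) with the call lost on the median-ratio scale (0.27, limma adjusted p = 0.103). The other 15 tested members, 9 of them called lower, had log2 changes of -0.62 to -0.04.

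Of 9 antigen presentation genes tested, 8 were called lower and 0 higher, where 25.4% of all tested genes were lower, and all 9 were lower on the median-ratio scale, where 34.9% were. B2m (ENSMUSG00000060802), the light chain of MHC class I, read 971, 1006 and 1069 in MoS2 and 634, 679 and 648 with light (log2 change -0.63, SE 0.07, limma adjusted p = 1.58e-05, and -1.45 on the median-ratio scale). The groups did not overlap. The immunoproteasome subunit genes Psmb8 and Psmb9, whose products cut peptides for display, fell from 17 ± 2.21 to 9.36 ± 0.853 (log2 change -0.79, rescaled -1.51, limma adjusted p = 9.04e-05) and from 3.37 ± 0.135 to 1.54 ± 0.163 (log2 change -0.79, rescaled -1.25, limma adjusted p = 0.000115). Tapbpl, a peptide editor, fell from 14.1 ± 1.33 to 9.35 ± 0.558 (log2 change -0.54, rescaled -1.26, limma adjusted p = 0.000612), and H2-T22, a class Ib heavy chain gene with close relatives, fell from 25.9 ± 1.1 to 18.4 ± 1.75 (log2 change -0.48, rescaled -1.24, limma adjusted p = 0.000809).

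The NF-kB list holds cytokine genes and also Nfkbia and Tnfaip2, which encode no cytokine. Of 11 tested, 6 were called higher, Tnfaip2 among them, and 3 lower, Nfkbia among them, beside 61.7% and 25.4% of all tested genes. The median log2 change of 0.52 turned to -0.29 on the median-ratio scale, where 2 were higher and 5 lower, beside 23.4% and 34.9%. Csf2 (ENSMUSG00000018916), which encodes GM-CSF, read 1.21, 2.18 and 1.75 in MoS2 and 9.98, 9.17 and 6.96 with light (log2 change 1.84, SE 0.16, limma adjusted p = 4.38e-06, and 1.15 on the median-ratio scale). Csf1 (ENSMUSG00000014599), the macrophage growth factor M-CSF, read 139.8, 142 and 148 in MoS2 and 46.9, 51.3 and 51.1 with light (log2 change -1.51, SE 0.10, limma adjusted p = 1.09e-06, and -2.31 on the median-ratio scale). These 2 colony-stimulating factors moved in opposite directions with no overlap between groups, in a table where light values lay all above in 61.7% and all below in 25.8%. The neutrophil chemokine genes Cxcl5 and Cxcl1 rose from 106 ± 1.56 to 233 ± 34.1 (log2 change 1.11, rescaled 0.30, limma adjusted p = 8.38e-06) and from 204 ± 9.61 to 385 ± 67.6 (log2 change 0.90, limma adjusted p = 4.77e-05), and the call of Cxcl1 ended on the median-ratio scale (0.08, limma adjusted p = 0.577). Nfkbia, which encodes the NF-kB inhibitor IkB-alpha, read 238, 247 and 266 in MoS2 and 126, 128 and 129 with light (log2 change -0.97, rescaled -1.78, SE 0.07, limma adjusted p = 2.29e-06).

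Of 11 targets of p53 tested, 6 were called higher and 5 lower, beside 61.7% and 25.4% of all tested genes. The counts were 4 and 5 on the median-ratio scale, beside 23.4% and 34.9%. Plk2 and Plk3, polo-like kinases of the stress response, rose from 36.8 ± 1.24 to 112 ± 3.57 (log2 change 1.58, rescaled 0.78, limma adjusted p = 9.92e-07) and from 9.85 ± 1.15 to 30.9 ± 1.41 (log2 change 1.56, rescaled 0.78, limma adjusted p = 2.67e-06). Aen, a nuclease active in apoptosis, rose from 7.41 ± 0.317 to 15.7 ± 0.801 (log2 change 0.99, limma adjusted p = 8.11e-06), with the call lost on the median-ratio scale (0.24, limma adjusted p = 0.0582). Gadd45b (ENSMUSG00000015312), a stress sensor upstream of p38, read 225, 229.8 and 248 in MoS2 and 73.3, 90.2 and 89.5 with light (log2 change -1.47, rescaled -2.27, SE 0.10, limma adjusted p = 1.09e-06). The genes of this list that rose and those that fell were each separated from MoS2 without overlap. Most of the table was separated too, with light values all above in 61.7% and all below in 25.8% of all tested genes.

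Of 9 apoptosis genes tested, 5 were called lower and 2 higher, beside 25.4% lower and 61.7% higher over all tested genes, and 7 were lower and 1 higher on the median-ratio scale, beside 34.9% and 23.4%. Fas (ENSMUSG00000024778), a death receptor, read 19.3, 21.1 and 21.8 in MoS2 and 7.3, 8.74 and 10.6 with light (log2 change -1.15, SE 0.12, limma adjusted p = 1.41e-05, and -1.87 on the median-ratio scale). Bbc3, the BH3-only killer PUMA, fell from 21.2 ± 2.55 to 11.1 ± 1.3 (log2 change -0.88, rescaled -1.62, limma adjusted p = 0.000365). The 2 genes called higher were the adaptor gene Tradd, which rose from 6.37 ± 0.146 to 18 ± 0.578 (log2 change 1.37, rescaled 0.61, limma adjusted p = 4.63e-05), and Cflar, which encodes the caspase-8 inhibitor c-FLIP. Cflar rose from 19.8 ± 1.92 to 27.9 ± 1.53 as deposited (log2 change 0.48, limma adjusted p = 0.000871) and was called lower on the median-ratio scale (-0.30, limma adjusted p = 0.0255). Gch1, whose enzyme makes the antioxidant tetrahydrobiopterin and limits ferroptosis, was not called (from 6.1 ± 1.46 to 7.75 ± 1.44, limma adjusted p = 0.0998). It was called higher without MoS2 replicate 1 or without MoS2_NIR replicate 3, and its direction turned on both other scales.

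Genes for ribosome assembly rose together as deposited. All 14 tested nucleolar assembly factors were called higher, with log2 changes of 0.55 to 2.25 and a median of 1.05, in a comparison where 61.7% of all tested genes were called higher. On the median-ratio scale 6 were higher and 0 lower, beside 23.4% and 34.9% of all tested genes, and quantile normalization gave 12 and 0, beside 39.3% and 31.1%. Ppan (ENSMUSG00000004100), a factor of large-subunit assembly, read 17.7, 15.3 and 18.7 in MoS2 and 91.4, 85.7 and 79.2 with light (log2 change 2.25, SE 0.13, limma adjusted p = 7.66e-07, and 1.45 on the median-ratio scale). Its light values all lay far above its highest MoS2 value. Rrs1, which brings in the 5S ribonucleoprotein, rose from 6.21 ± 0.797 to 22.1 ± 0.705 (log2 change 1.68, rescaled 0.92, limma adjusted p = 6.94e-06), and Gnl3, the nucleolar GTPase nucleostemin, rose from 38.4 ± 2.81 to 100.2 ± 6.62 (log2 change 1.36, rescaled 0.56, limma adjusted p = 1.81e-06). Nop56, a core protein of box C/D ribonucleoproteins, rose from 104 ± 5.54 to 259 ± 35.3 (log2 change 1.3, rescaled 0.49, limma adjusted p = 2.35e-06), and Utp4, of the small-subunit processome, rose from 17.5 ± 0.762 to 43.3 ± 3.99 (log2 change 1.26, rescaled 0.47, limma adjusted p = 2.35e-06). These 5 kept their calls on all 3 scales.

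In the MYC network, 5 of 6 tested genes were called higher and 0 lower, where 61.7% of all tested genes were higher, against 3 higher and 1 lower on the median-ratio scale, where 23.4% were higher. Polr3d, a subunit of RNA polymerase III, rose from 8.24 ± 0.535 to 21.3 ± 0.599 (log2 change 1.27, rescaled 0.51, limma adjusted p = 9.08e-06), and Mnt, a MAX partner that opposes MYC, rose from 9.49 ± 0.938 to 20.3 ± 0.947 (log2 change 1.02, rescaled 0.26, limma adjusted p = 4.31e-05). Ccnd2, cyclin D2, rose from 19.5 ± 0.428 to 32.3 ± 4.03 as deposited (log2 change 0.69, limma adjusted p = 0.00293), and its direction turned on the median-ratio scale (-0.09, limma adjusted p = 0.587). Polr3g, another polymerase III subunit, had overlapping groups at 10.4, 8.61 and 13.9 in MoS2 and 15.9, 15.8 and 12.2 with light (limma adjusted p = 0.0376). Its call ended without either of MoS2 replicates 1 and 2 or of MoS2_NIR replicates 1 and 2 (limma adjusted p = 0.0888 to 0.163), and its direction turned on both other scales. Mxd4, a MYC antagonist, was not called (from 3.56 ± 0.54 to 3.06 ± 0.157, limma adjusted p = 0.247) and was called lower on both other scales.

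All 8 tested genes of S phase and DNA repair were called higher as deposited, where 61.7% of all tested genes were, and on the median-ratio scale 2 were higher and 1 lower, beside 23.4% and 34.9%. E2f8, an E2F repressor, read 9.37, 8.95 and 10.4 in MoS2 and 27.6, 26.3 and 26.9 with light (log2 change 1.4, SE 0.14, limma adjusted p = 9.29e-06, and 0.63 on the median-ratio scale). The cyclin E genes Ccne1 and Ccne2 rose from 2.06 ± 0.296 to 5.66 ± 1.38 (log2 change 1.11, rescaled 0.46, limma adjusted p = 8.98e-05) and from 3.99 ± 0.246 to 8.65 ± 0.789 (log2 change 0.95, rescaled 0.25, limma adjusted p = 6.40e-05), and the call of Ccne2 ended on the median-ratio scale (limma adjusted p = 0.077). Exo1, a repair exonuclease, rose from 6.12 ± 1.2 to 11.2 ± 0.476 (log2 change 0.78, rescaled 0.05, limma adjusted p = 0.00028), with the call lost on both other scales. H2ax, the histone variant that marks DNA breaks, rose from 44.2 ± 4.26 to 72.8 ± 7.08 as deposited (log2 change 0.71, limma adjusted p = 0.000178) and its direction turned on the median-ratio scale (-0.10, limma adjusted p = 0.418).

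Other histone genes were mostly lower. Of 11 tested, 9 were called lower and 1, H2ax, higher, with a median log2 change of -0.91, in a table where 25.4% were called lower. With median-ratio scaling 10 were lower and 0 higher, beside 34.9% lower over all tested genes. H2aw (ENSMUSG00000078851), a core histone H2A gene, read 23.9, 23.1 and 25.8 in MoS2 and 2.26, 3.3 and 3.99 with light (log2 change -2.61, SE 0.14, limma adjusted p = 6.07e-07, and -3.21 on the median-ratio scale). H1f2 (ENSMUSG00000036181), a linker histone, read 26.5, 26.2 and 28.8 in MoS2 and 2.97, 4.81 and 5.58 with light (log2 change -2.4, SE 0.16, limma adjusted p = 1.09e-06, and -3.04 on the median-ratio scale). In both genes the highest light value lay far below the lowest MoS2 value. H1f0, a linker histone made outside S phase, fell from 1128 ± 28.3 to 602 ± 69.4 (log2 change -0.91, rescaled -1.73, limma adjusted p = 1.19e-05), and H2bc4 fell from 7.65 ± 0.389 to 3.33 ± 0.803 (log2 change -1.01, rescaled -1.61, limma adjusted p = 6.26e-05). Leaving out 1 library gave 7 to 10 lower calls. Most histone messages of S phase end in a stem-loop in place of a poly(A) tail, the labels give polyA RNA, and histone genes have near-identical copies. The part of these in the result was not tested.

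Light was also followed by lower values of several clock genes and of genes that answer to fuel and oxygen. Nr1d1 (ENSMUSG00000020889), the clock repressor REV-ERB-alpha, read 176, 184 and 207 in MoS2 and 40.6, 52.2 and 60.8 with light (log2 change -1.88, SE 0.16, limma adjusted p = 3.81e-06, and -2.68 on the median-ratio scale). Bhlhe40 (ENSMUSG00000030103), the clock and hypoxia repressor DEC1, read 408, 429 and 438 in MoS2 and 134, 148 and 168 with light (log2 change -1.5, SE 0.11, limma adjusted p = 1.78e-06, and -2.31 on the median-ratio scale). Core repressors of the clock divided. Per2 rose from 2.16 ± 0.10 to 7.19 ± 0.391 (log2 change 1.37, rescaled 0.70, limma adjusted p = 9.29e-06), Cry2 rose from 3.85 ± 0.231 to 9.15 ± 0.761 (log2 change 1.06, rescaled 0.36, limma adjusted p = 4.98e-05) and Cry1 rose from 5.48 ± 0.523 to 12.2 ± 0.709 (log2 change 1.03, limma adjusted p = 5.01e-05), the last with the call lost on the median-ratio scale (0.30, limma adjusted p = 0.0636). Per1, named here after its values were seen, fell with a log2 change of -0.96, rescaled -1.76. In all, 4 of 7 clock genes tested were called lower and 3 higher, beside 25.4% and 61.7% of all tested genes.

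In the glycolysis and hypoxia list, 5 of 6 tested genes were called lower and 1 higher, as deposited and on both other scales. Of all tested genes, 25.4% were called lower as deposited, 34.9% on the median-ratio scale and 31.1% after quantile normalization. Txnip (ENSMUSG00000038393), the glucose-induced inhibitor of thioredoxin, read 67.1, 64.4 and 64.7 in MoS2 and 22.5, 30.03 and 33.4 with light (log2 change -1.18, rescaled -1.97, SE 0.13, limma adjusted p = 1.54e-05). Its relative Arrdc4, which shares its control by glucose, fell from 5.47 ± 0.504 to 1.98 ± 0.854 (log2 change -1.15, rescaled -1.66, limma adjusted p = 0.000165). Adm, the vasodilator peptide adrenomedullin, fell from 71.4 ± 5.49 to 36.4 ± 2.49 (log2 change -0.95, rescaled -1.74, limma adjusted p = 1.33e-05), and Pfkfb3, an activator of glycolysis, fell from 14.5 ± 0.863 to 7.83 ± 0.673 (log2 change -0.81, rescaled -1.52, limma adjusted p = 0.000927). The gene called higher was Egln3, an oxygen-sensing prolyl hydroxylase, which rose from 78.3 ± 4.37 to 164 ± 17.5 (log2 change 1.05, rescaled 0.24, limma adjusted p = 1.08e-05). Pik3ip1, an inhibitor of PI3 kinase among the FOXO targets, fell from 9.53 ± 1.17 to 4.19 ± 1.13 (log2 change -1.04, rescaled -1.67, limma adjusted p = 0.000572).

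Of 8 tested genes of the matrix and of invasion, 7 were called lower and 0 higher, beside 25.4% lower over all tested genes. All 8 were lower on both other scales, beside 34.9% on the median-ratio scale and 31.1% after quantile normalization. Lower calls could hardly be lost on the median-ratio scale, so their stability there is no support. Mmp9 (ENSMUSG00000017737), the gelatinase that cuts basement membrane, read 20.2, 19.7 and 22.1 in MoS2 and 7.79, 8.4 and 9.04 with light (log2 change -1.2, SE 0.12, limma adjusted p = 1.17e-05, and -1.92 on the median-ratio scale). All 3 light values lay below all MoS2 values. Lamb3, a laminin chain, fell from 196 ± 2.58 to 124 ± 10.3 (log2 change -0.65, rescaled -1.46, limma adjusted p = 0.000184), Timp1, a protease inhibitor, fell from 145 ± 7.42 to 100.3 ± 3.56 (log2 change -0.52, rescaled -1.33, limma adjusted p = 0.000147), and Mmp3, a stromelysin, fell from 3.51 ± 0.601 to 2.05 ± 0.0503 (log2 change -0.56, rescaled -1.08, limma adjusted p = 0.00166). Snai1 (ENSMUSG00000042821), the transcription factor that represses epithelial cadherin, read 108, 118 and 135 in MoS2 and 27.8, 36.1 and 44.1 with light (log2 change -1.73, SE 0.18, limma adjusted p = 1.10e-05, and -2.52 on the median-ratio scale). The splicing regulator Esrp2, an epithelial factor, rose from 6.45 ± 0.486 to 11 ± 2.39 as deposited (log2 change 0.68, limma adjusted p = 0.00155), and its direction turned on the median-ratio scale (-0.05, limma adjusted p = 0.741). Of the TGF-beta group, Id2 fell from 87.5 ± 7.27 to 59.6 ± 3.7 (log2 change -0.55, rescaled -1.35, limma adjusted p = 0.000223) and Id3 fell from 61.4 ± 1.63 to 39.4 ± 6.18 (log2 change -0.64, rescaled -1.43, limma adjusted p = 0.000691), both inhibitors of differentiation factors. The receptor gene Tgfbr2 rose from 24.9 ± 0.703 to 39.4 ± 1.93 (log2 change 0.64, limma adjusted p = 0.00052) and turned on the median-ratio scale (-0.15, limma adjusted p = 0.132).

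The 4 tested tubulin genes were called higher as deposited, where 61.7% of all tested genes were, and 1 of them, Tuba4a, turned on the median-ratio scale. Tuba1c (ENSMUSG00000043091), an alpha-tubulin, read 146, 153 and 159 in MoS2 and 499, 464 and 436 with light (log2 change 1.6, SE 0.08, limma adjusted p = 3.24e-07, and 0.79 on the median-ratio scale). Tubb4b rose from 231 ± 9.47 to 504 ± 36.2 (log2 change 1.12, rescaled 0.30, limma adjusted p = 1.78e-06), Tubb6 rose from 137 ± 3.76 to 252 ± 37.5 (log2 change 0.87, limma adjusted p = 2.50e-05) and Tuba4a rose from 109 ± 10.1 to 185 ± 7.22 (log2 change 0.77, limma adjusted p = 2.88e-05). On the median-ratio scale Tuba1c and Tubb4b stayed higher, the call of Tubb6 ended (0.05) and the direction of Tuba4a turned (-0.04, limma adjusted p = 0.68). Tubulin genes have close copies among which reads may be divided. Tpm2, a tropomyosin of actin filaments, fell from 4.07 ± 1.04 to 2.21 ± 0.465 (log2 change -0.65, rescaled -1.18, limma adjusted p = 0.00383).

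Of 7 structured noncoding RNAs and host transcripts of small RNAs tested, 5 were called higher and 1 lower, beside 61.7% and 25.4% of all tested genes. Mir17hg and Mir155hg among the 5 reached the limit for testing only through the light libraries, so the count is description and not support. The 5 were all host transcripts, Mir22hg and Mir17hg above among them, while Neat1, the scaffold of paraspeckles, was the gene called lower (log2 change -0.44, rescaled -1.26, limma adjusted p = 0.00533) and Rmrp, the RNA of RNase MRP, was not called (log2 change 1.04, rescaled 0.31, limma adjusted p = 0.102). Neat1 and Rmrp were picked for mention with their values known. Snhg15 rose from 9.71 ± 0.685 to 31.5 ± 3.05 (log2 change 1.6, rescaled 0.82, limma adjusted p = 9.29e-06), Snhg17 rose from 16.6 ± 1.25 to 33.4 ± 3.68 (log2 change 0.96, rescaled 0.18, limma adjusted p = 3.66e-05), with the call lost on the median-ratio scale (limma adjusted p = 0.26), and Mir155hg, the host of miR-155, rose from 0.497 ± 0.146 to 1.9 ± 0.134 (log2 change 0.96, rescaled 0.50, limma adjusted p = 2.69e-05). Both tested splicing genes were lower, beside 25.4% of all tested genes as deposited and 34.9% on the median-ratio scale. Rsrp1 went from 102 ± 8.71 to 50.9 ± 3.84 (log2 change -0.98, rescaled -1.78, limma adjusted p = 5.81e-05) and Luc7l3 from 36.5 ± 1.68 to 29.3 ± 0.459 (log2 change -0.31, rescaled -1.09, limma adjusted p = 0.00711). Transcripts of the mitochondrial genome divided. The complex I subunit genes mt-Nd1 and mt-Nd2 rose from 835 ± 50.9 to 1776 ± 104 (log2 change 1.09, limma adjusted p = 1.09e-06) and from 624 ± 23.3 to 1203 ± 107 (log2 change 0.94, limma adjusted p = 3.30e-06), with both calls lost on the median-ratio scale (0.27 and 0.13). The small ribosomal RNA mt-Rnr1 read 215, 221 and 199 in MoS2 and 109, 131 and 129 with light (log2 change -0.78, rescaled -1.59, limma adjusted p = 3.21e-05). The autophagosome gene Map1lc3b fell from 90.8 ± 5.49 to 56 ± 2.83 (log2 change -0.69, rescaled -1.49, limma adjusted p = 2.94e-05).

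Markers of the line were checked as far as the table holds them. Of 10 listed 4T1 markers, 3 were tested. Spp1, osteopontin, fell from 962 ± 30.1 to 560.4 ± 28.4 (log2 change -0.78, rescaled -1.59, limma adjusted p = 3.65e-06), and Lcn2, lipocalin 2, fell from 233 ± 8.05 to 98.9 ± 8.79 (log2 change -1.23, rescaled -2.04, limma adjusted p = 1.09e-06). Csf3, the cytokine G-CSF, rose from 118 ± 4.75 to 172 ± 34.7 as deposited (log2 change 0.52, limma adjusted p = 0.00264) and turned on the median-ratio scale (-0.29, limma adjusted p = 0.068). Keratin 14 was below the limit, at 0.15, 0.19 and 0.12 in MoS2 and 0.21, 0.18 and 0.31 with light. Of 18 markers of fibroblasts, immune cells and endothelium, 2 are among the genes analysed here. Col1a1 was below the limit, at 0.43, 0.36 and 0.39 in MoS2 and 0.33, 0.28 and 0.35 with light, and Postn, a fibroblast matrix gene that carcinoma cells can also express, fell from 2.43 ± 0.613 to 0.523 ± 0.135 (log2 change -1.16, rescaled -1.44, limma adjusted p = 3.49e-05). The part of other cells in the results was not tested.

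At the other end of detection, 18 named genes were listed at 0 in all 3 light libraries and above 0 in all 3 MoS2 libraries, and 3 of these were at 1 or more in every MoS2 library. Pet117 (ENSMUSG00000098387), a factor of cytochrome c oxidase assembly, read 3.34, 2.01 and 4.09 in MoS2 (limma adjusted p = 1.48e-05). Inafm1 read 2.09, 1.32 and 1.81 (limma adjusted p = 5.03e-05) and the predicted gene Gm12868 2.6, 3.2 and 3.63 (limma adjusted p = 1.09e-06). These genes were picked by their values of 0 with light, so their p-values are description and not support. In the reverse direction 17 genes were listed at 0 in MoS2 and above 0 with light, of which Hspb1 alone reached 1 in every light library. A listed 0 does not show that a transcript was absent, since the depth of the libraries is unknown. Il31ra, the receptor of interleukin-31, was not called between the groups, at 1702, 1559 and 1006 in MoS2 and 1606, 1141 and 1174 with light (log2 change -0.10, rescaled -0.92, limma adjusted p = 0.775). Its light values lay within the range of its MoS2 values as deposited, and it was called lower on the median-ratio scale (limma adjusted p = 0.0459).

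The median log2 change of the listed members can be read against that of all tested genes. Of 186 distinct listed genes tested, 89 were called higher and 76 lower, beside 61.7% and 25.4% of all tested genes. On the median-ratio scale 45 were higher and 95 lower, beside 23.4% and 34.9%. Lists with medians above the 0.68 of all tested genes included ribosome assembly at 1.05, MAPK feedback at 1.08 and immediate early genes at 1.14. Lists with medians below 0 included the interferon response at -0.39, antigen presentation at -0.48, matrix and invasion at -0.54, histones at -0.91 and glycolysis and hypoxia at -1.05. No listed gene for chaperones of the endoplasmic reticulum, cytosolic ribosomal proteins or mitosis was analysed here. None of these medians was tested against other genes.

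**Figure D5:**
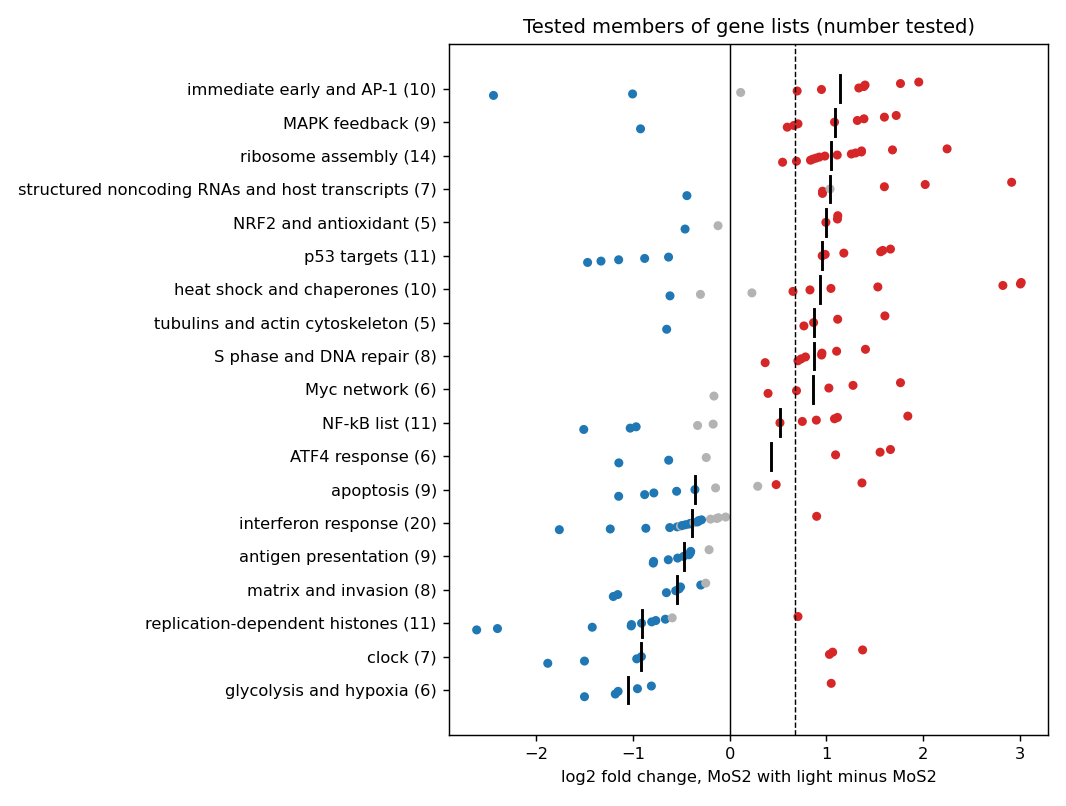
Log2 changes of MoS2_NIR against MoS2, as deposited, for each tested member of the gene lists with at least 5 tested members, 1 point per gene with its limma call, the list median as a bar and the median of all tested genes, 0.68, as a dashed line. Ribosome assembly and S phase members all lie above 0, and antigen presentation and matrix members all lie below it.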

How the data were processed

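RNA of 4T1 cells was sequenced in 9 libraries, 3 for each of 3 groups, with groups and replicate numbers as in the titles. The submitters' processing notes name HTSeq, Bowtie 0.12.9, Cufflinks 2.1.1 and build mm10 without giving their roles, and the strand setting is not stated, so overlapping and antisense genes cannot be separated. The organism field names the rat, while the source, the line, the build and the gene identifiers name the mouse, and the genes were treated as mouse genes. Positions were not analysed here.

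The authors deposited scores: each gene's values were standardized over the 9 libraries. The values behind them were recovered by searching multiples of 0.01 for which ln (value + 1), once standardized, matches the scores within 1e-09. A solution was accepted where the expected number of chance solutions was below 0.001. Values were recovered for 2389 of 2392 rows, and Gm14405, Gm10736 and Gm6507 gave none. Their unit and the depth of the libraries are unknown, so no counting interval is given. The test planned for normalized values was used.

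Log2 (value + 1) was fitted in R 4.3.3 by limma 3.58.1 (trended, robust moderation) over all 9 libraries in 1 fit with 6 residual degrees of freedom and no scaling between libraries. The step was tested on simulated data. P-values were adjusted by Benjamini-Hochberg over all fitted genes. The alternatives were median-ratio scaling, quantile normalization, pseudocounts of 0.1 and 5, no filter, only the 6 libraries compared, no trend, replicate number as a block, and each library left out. Comparison and gene lists were chosen with earlier results of these data known. Genes were named by a rule: the 12 highest and the 12 lowest log2 changes among calls with a group mean of 5 or more, leaving out predicted genes, clones and pseudogenes, all tested members of lists with up to 6, otherwise the 5 with the lowest adjusted p and every heat shock gene, genes at 0 in 1 group and at least 1 throughout the other, and the 5 with the highest mean. Of the genes this rule names, 3 are not reported here.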

Additional observations from a re-analysis of the deposited data

How the results depend on the processing

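The scale of the values was the choice that mattered most. Genes called higher with light numbered 1078 as deposited (61.7% of those tested), 409 on the median-ratio scale (23.4%) and 687 after quantile normalization (39.3%). Of the 186 distinct listed genes tested, 89, 45 and 76 were called higher. Genes called lower numbered 444, 610 and 544. Of the 132 named genes, 125 were called, and 101 kept their call under every alternative run. Median-ratio scaling turned the direction of Hsph1 (-0.57), Hspb8 (-0.15), Cflar (-0.30), Gch1 (-0.39), Polr3g (-0.35), Ccnd2 (-0.09), H2ax (-0.10), Tuba4a (-0.04), Esrp2 (-0.05), Tgfbr2 (-0.15) and Csf3 (-0.29), given as log2 changes, and ended 15 further calls. Of the genes turned, Hsph1 and Cflar were called lower on that scale (limma adjusted p = 0.00352 and 0.0255), and the others were not called on it. Quantile normalization turned Gch1 (-0.27) and Polr3g (-0.10) and ended 6 further calls. Without MoS2 replicate 1 the value of Il31ra, which was not called, was 0.04 in place of -0.10, and between -0.34 and 0.04 without any 1 library. The cause was not tested. Without any 1 library, 1051 to 1083 genes were called higher and 400 to 446 lower, and Polr3g was the sole named gene whose call ended. No filter on low values gave 1374 higher and 506 lower. Libraries with the same replicate number deviated from their group means with correlations of 0.086, 0.058 and -0.066 across genes, so the numbers were not taken to pair the libraries, and not every library correlated best with its own number. With the replicate block 1074 genes were called higher and 442 lower, and of the named genes the call of Polr3g changed (log2 change 0.40, limma adjusted p = 0.0614). Unknown depth means that small differences in genes with low values cannot be judged, and without a list of the genes left out of the table the general shift cannot be placed.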

Other observations

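Some families of genes were grouped by name after their values were seen, and their counts stand beside 61.7% higher and 25.4% lower over all tested genes as deposited, 23.4% and 34.9% on the median-ratio scale and 39.3% and 31.1% after quantile normalization. Of 67 tested zinc finger genes named Zfp, 59 were called higher and 3 lower, against 32 and 5 on the median-ratio scale and 42 and 4 after quantile normalization. Their log2 changes ran from -4.25 (Zfp986) to 1.51 (Zfp296). Of 39 solute carrier genes, which carry nutrients and ions across membranes, 33 were higher and 4 lower, against 15 and 6 on the median-ratio scale, and the extremes were Slc20a1 (-0.88) and Slc16a8 (2.38). All 7 tested chromatin genes named Kdm, Kmt, Arid or Set were higher, and 2 stayed so on the median-ratio scale. Of 6 translation initiation factor genes named Eif, 5 were higher and 1 lower on all 3 scales. All 5 microRNA genes or host transcripts named Mir were higher on all 3 scales, with log2 changes of 0.96 to 2.91. Mir17hg and Mir155hg among them reached the limit for testing only through the light libraries.

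Of 254 tested predicted genes named Gm, 83 were called higher and 101 lower as deposited, with a median log2 change of -0.27 beside the 0.68 of all tested genes. On the median-ratio scale 42 were higher and 140 lower, and there the table as a whole also held more lower than higher calls, 610 against 409. Of 4 tested ribosomal protein genes or copies, 1 was higher and 0 lower as deposited, and 0 and 2 on the median-ratio scale. What these families share with the selection of the table was not tested.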
